A study of Drosophila melanogaster with 2 samples.

Results

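Binding of CG17829 to 10 genes that drive and restrain the cell cycle was described from chromatin immunoprecipitation with sequencing (ChIP-seq) of whole Drosophila melanogaster embryos. The genes are the cyclins CycA, CycB, CycB3, CycD and CycE, the cyclin-dependent kinases Cdk1, Cdk2 and Cdk4, the phosphatase gene stg and the inhibitor gene dap. They were taken by symbol from the fly annotation in dm6 coordinates and are 10 of 13945 protein-coding genes. A peak was assigned to a gene when its summit lay in the gene body or within 5 kb of it. The summit is the base the authors give by an offset from the start of the peak. No measured value entered this choice, but the genes were picked with earlier results of these data known.

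There was 1 group. Its embryos, of both sexes together, were 0 to 24 hours old and came from 1 transgenic line in which GFP is joined to the C terminus of CG17829; the chromatin was pulled down through the GFP. The biological replicates are numbered 2 and 4, and both carry the fusion. Which promoter drives the fusion is not given in the sources used here. There is no second condition, so nothing was compared between genotypes or ages. Each replicate list and the list made from both replicates together, the pooled list, holds 30000 peaks. A shorter list, cut at a limit on the irreproducible discovery rate (IDR, which scores how far peak ranks repeat between replicates), holds 7915, and these are the 7915 strongest of the pooled list. Ranks count from the strongest peak of a list, and signal is the authors' deposited value, whose scale is not stated, so it is read only within a list. Read depth is unknown. In whole embryos, weak binding in all cells and strong binding in few cells cannot be told apart.

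CG17829 is the fly relative of human HINFP, a zinc-finger factor that in human cells activates histone H4 genes as cells enter S phase, downstream of cyclin E and CDK2. Cyclins switch on their kinase partners at set points of the cycle: CycD with Cdk4 acts in growth and G1, CycE with Cdk2 starts DNA replication, and CycA, CycB and CycB3 act with Cdk1 in mitosis. The stg product, a Cdc25 phosphatase, removes the inhibitory phosphates from Cdk1, and in the fly embryo its transcription times the divisions that follow cellularisation. The dap product belongs to the p21/p27 family and blocks CycE with Cdk2 when cells leave the cycle.

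Summits lay at the starts of most of these genes. In the IDR list 7 of the 10 genes had a summit within 250 bp of an annotated transcription start site (TSS), called a promoter summit here, against 31.7% of all protein-coding genes. The 7 were CycA, CycB, CycB3, CycE, Cdk1, Cdk2 and stg. With the wider window of gene body and 5 kb, 9 of the 10 had an IDR summit, against 64.9% of all protein-coding genes, and only dap had none. In the longer lists all 10 genes had a promoter summit, against 48.9% of all protein-coding genes in the pooled list, 49.3% in replicate 2 and 48.5% in replicate 4. All 10 also had a summit in the wider window in these lists, against 77.8% in the pooled list, 78.0% in replicate 2 and 79.9% in replicate 4, so those counts say little about the 10 genes.

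The 10 windows held 23 IDR summits and 76 pooled summits. A window held a median of 2.50 IDR summits, against 1.00 over all protein-coding genes, and the windows were slightly longer, with a median of 13682 bp against 12166 bp. Of the 23 summits, 7 lay at the promoter of a gene of the set, 1 of them shared with a neighbour, and 8 lay only at the promoter of a neighbour. The other 8 were 3 in introns, 2 upstream and 3 downstream of the gene. A summit within 5 kb is therefore not by itself a summit of the gene. The strongest promoter summits had a median rank of 3638 over the 7 genes that have one, beside 3636 over the 4416 protein-coding genes that have one.

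**Figure D1:**
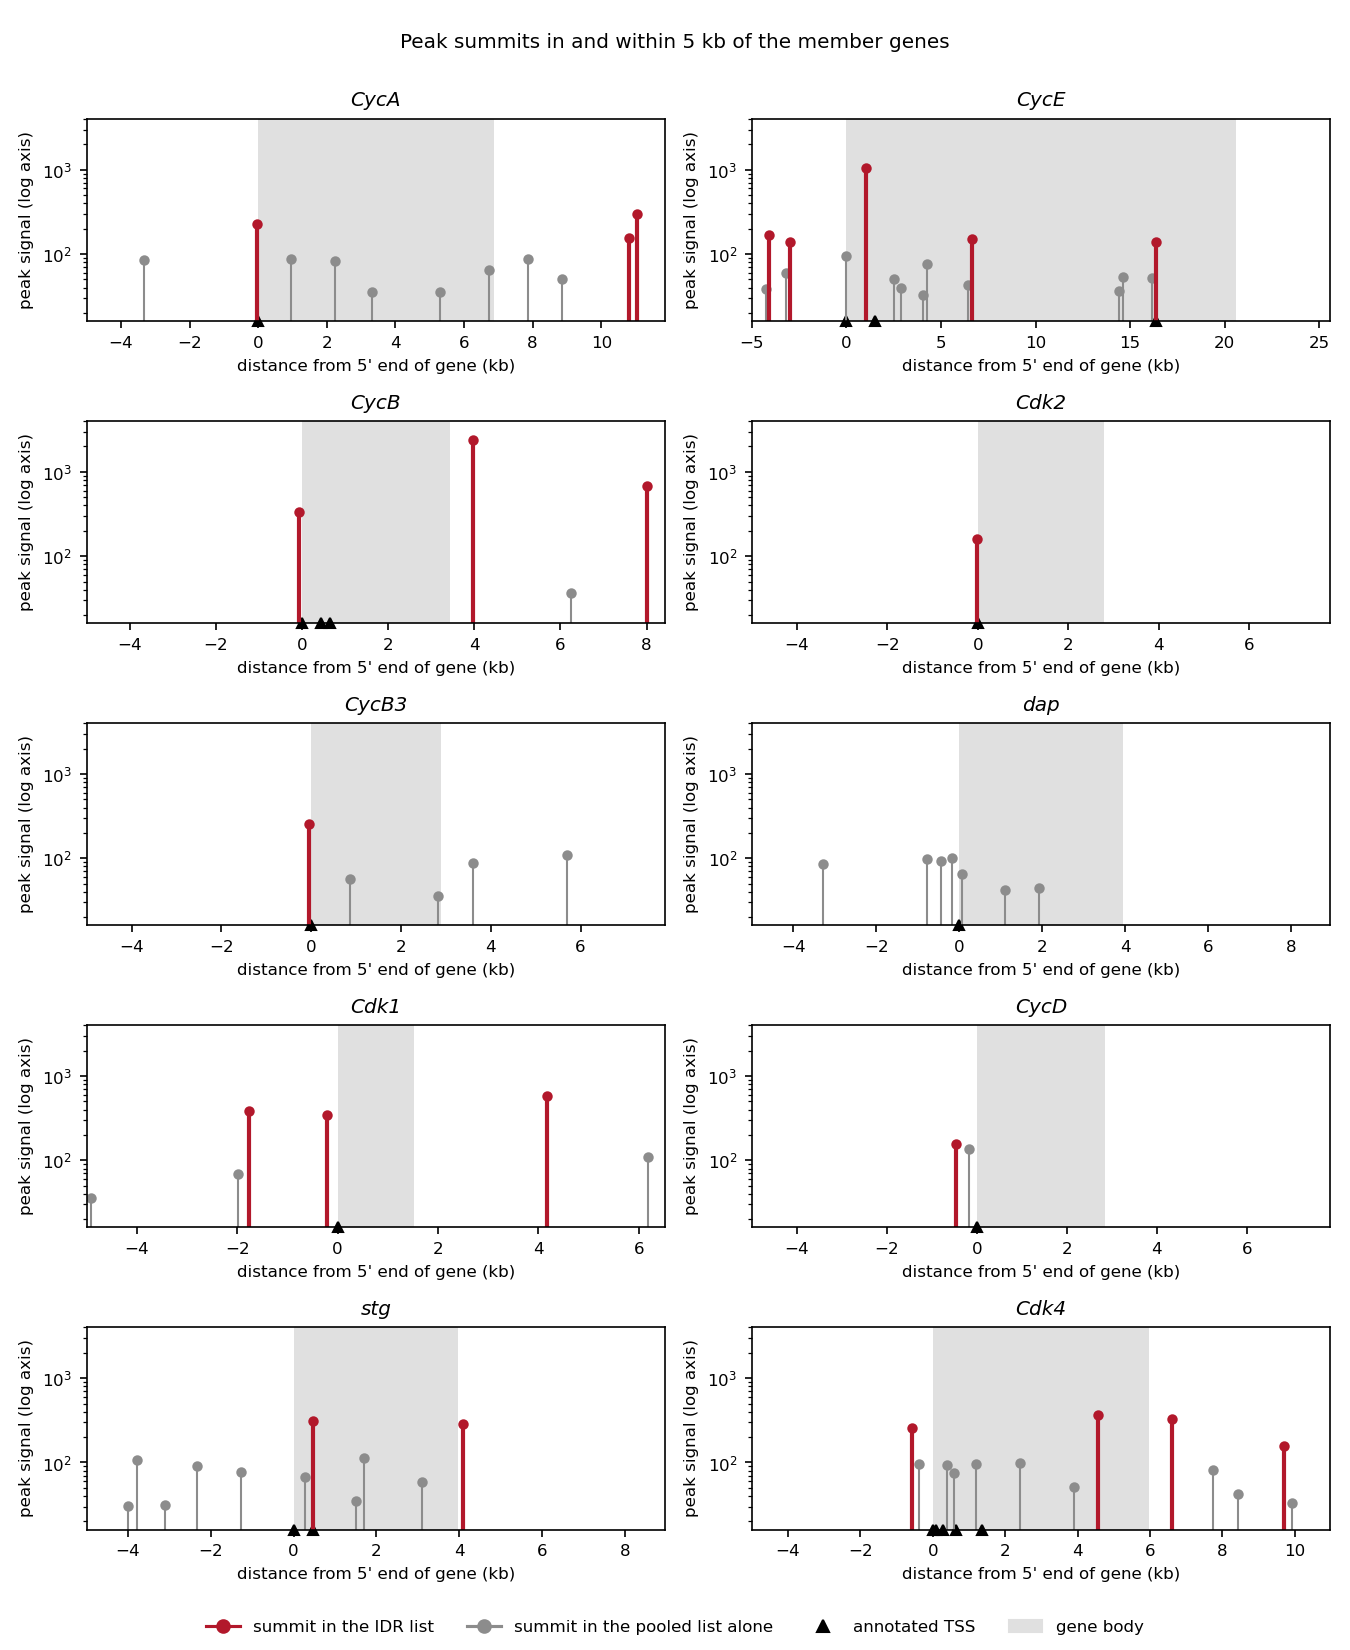
Peak summits in and around each of the 10 genes, in the direction of transcription: the x axis is the distance from the 5′ end of the gene in kb, and the y axis is the deposited signal of the peak in the pooled list on a log axis. Red marks the 23 summits of the IDR list, grey the pooled summits outside it, triangles the annotated starts and shading the gene body. The summit of highest signal, 2381, lies just past the 3′ end of CycB, and dap has grey summits alone.

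Among these 10 genes, ordered by the rank of their promoter summits, those of mitosis came before those of G1 and S phase. In the pooled list the strongest promoter summits of CycA, CycB, CycB3, Cdk1 and stg ranked between 2312 and 4210, and those of CycD, CycE, Cdk2, Cdk4 and dap between 6759 and 11081. The ranges did not overlap in either replicate. They were 2240 to 4066 against 6271 to 25545 in replicate 2. In replicate 4 they were 1540 to 4254 against 4949 to 14809. Both the 4949 and the 25545 were the rank of CycD. In the IDR list, the quartiles of the promoter rank were 1819 and 5481 over the 4416 protein-coding genes that have one. The pooled range of the mitotic genes lay between these quartiles, so it was a usual one. The genes were put into these sets of 5 after the ranks had been seen, so the gap between the ranges is a description of that choice, no test was made, and the replicates, from which the pooled list was made, add no independent support. The Cdk1 summit is shared with the promoter of mRpS7; without it the first set ran from 2386 to 4210 in the pooled list. The order held only close to the TSS. When summits up to 1000 bp away were counted, CycE had the best rank of all 10 genes, 291, and Cdk4 reached rank 3628.

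**Figure D2:**
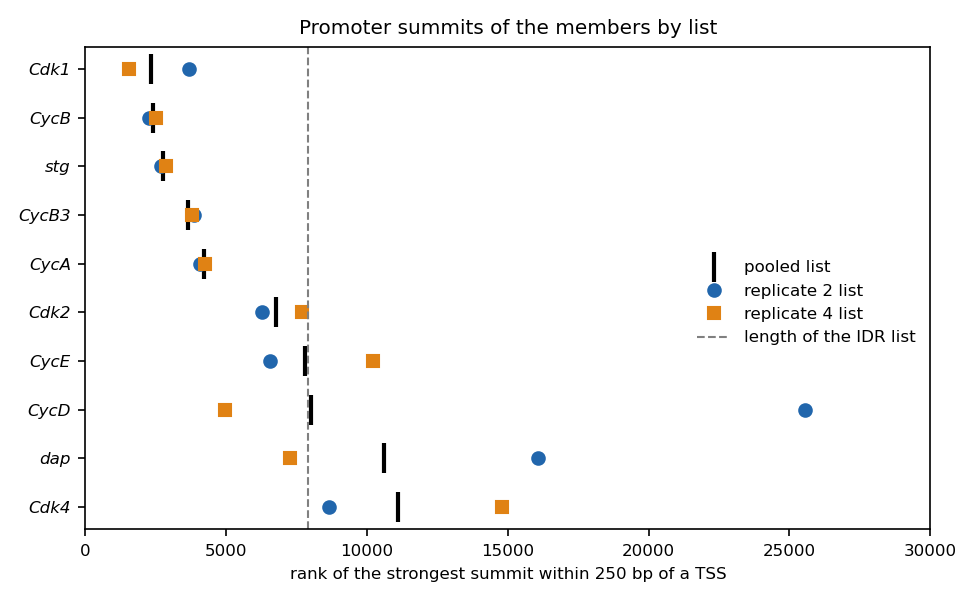
Rank of the strongest summit within 250 bp of a TSS of each gene in the pooled list (bar), the replicate 2 list (circle) and the replicate 4 list (square); a low rank is a strong peak. The dashed line is the length of the IDR list, 7915. The 5 genes at the top are the mitotic ones, with all 3 marks at rank 4254 or better. CycE, CycD and dap have 1 replicate on each side of the line, and all marks of Cdk4 lie beyond it.

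Cdk1, the kinase that drives entry into mitosis, had the strongest promoter summit of the 10 genes in the IDR list, at rank 2312. It was also the one on which the replicates differed most. In replicate 2 the promoter summits of CycB, at rank 2240, and stg, at rank 2693, were ahead of it. Cdk1 (FBgn0004106) lies on 2L from 10384739 to 10386262 on the minus strand. The peak ranked 3690 in replicate 2 with signal 141 and 1540 in replicate 4 with signal 203. This ratio of ranks, 2.40, was the only one above 2 among the 23 summits, and 10.1% of the 7828 IDR peaks found in both replicate lists had a ratio above 2. The summit lay 204 bp upstream of the Cdk1 TSS and 196 bp from that of mRpS7, a mitochondrial ribosomal protein gene on the other strand, so it cannot be assigned to either gene. Both other IDR summits of the Cdk1 window belonged to neighbours: one at rank 952 lay 164 bp from the TSS of CG5096, and one at rank 1899 lay 73 bp from that of da, which encodes the bHLH protein Daughterless.

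CycA, CycB3 and stg each had a promoter summit that both replicates ranked alike. CycA (FBgn0000404; 3L, 11826719 to 11833578, minus strand) had it 26 bp upstream of its single TSS, at IDR rank 4210, with rank 4066 and signal 132 in replicate 2 and rank 4254 and signal 107 in replicate 4. CycB3 (FBgn0015625; 3R, 24867934 to 24870816, minus strand) had its only IDR summit 55 bp upstream of the TSS, at rank 3638, with rank 3861 and signal 137 in replicate 2 and rank 3792 and signal 116 in replicate 4. Further IDR summits of CycA lay 3956 bp and 4171 bp past its 3′ end. The nearer, at rank 7045, was 88 bp from the TSS of RpL10Ab. The farther, at rank 2853, lay between 273 bp to the TSS of CG11597 and 303 bp to the 5′ end of RpL10Ab. The ratios of ranks at the CycA and CycB3 promoters, 1.05 and 1.02, were below the median of 1.29 over all IDR peaks. The gene stg (FBgn0003525; 3R, 29251826 to 29255800, minus strand) has starts at 29255325 and 29255800, and the summit lay 7 bp from the inner one, at IDR rank 2746. It ranked 2693 in replicate 2 with signal 172 and 2847 in replicate 4 with signal 140. A further stg peak lay 127 bp past the 3′ end, at IDR rank 3022, and was at rank 2437 in replicate 2 and at rank 4604 in replicate 4. In the 5 kb upstream of stg there was no IDR summit, and the pooled list had 5, the best at rank 9980.

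Sequence at the promoter summits of CycA, Cdk2 and CycB3 is shown because each holds, within 50 bp of the summit, an element known from fly housekeeping promoters. The stretches are chr3L:11833579-11833654 on the minus strand for CycA, chr3R:20735550-20735622 on the plus strand for Cdk2 and chr3R:24870821-24870921 on the minus strand for CycB3, in dm6, read 5′ to 3′ along the gene from the RefSeq sequence and ended at the TSS where the window crossed it. Capitals mark TATCGATA, the DNA replication-related element bound by the factor DREF, in the CycA and Cdk2 stretches, and the core of the element called motif 1, GGTCACACT, in that of CycB3.
CycA: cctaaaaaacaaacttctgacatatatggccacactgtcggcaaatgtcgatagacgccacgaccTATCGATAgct
Cdk2: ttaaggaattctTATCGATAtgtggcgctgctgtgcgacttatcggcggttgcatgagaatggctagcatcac
CycB3: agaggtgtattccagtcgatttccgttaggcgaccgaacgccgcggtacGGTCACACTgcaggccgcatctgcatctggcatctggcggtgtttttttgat

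The elements were searched on both strands in windows of 101 bp centred on each summit. TATCGATA was in 3 of the 23 windows, those of CycA, Cdk2 and the promoter of RpL10Ab, a ribosomal protein gene in the CycA window; 3.41% of all IDR windows held it, and 0.272% of windows moved 500 bp to either side. GGTCACACT was in 2 of the 23, at CycB3 and at the promoter of ND-B17, a complex I subunit gene upstream of CycE, beside 2.08% of all IDR windows and 0.107% of the moved ones. CGGAC, the core of the site of human HINFP, was in 1 of the 23, at the stg peak past the 3′ end, and in 4.08% of all IDR windows, against 9.39% of the moved ones. The longer forms GCGGAC and CGGACGTT, which contain that core, were in none of the 23. They were in 1.39% and 0.0758% of all IDR windows, and in 2.92% and 0.0884% of the moved ones. None of the 23 held TTTGGCGC or TTTCCCGC, sites of E2F, the factor that induces S-phase genes, nor CAGGTAG of the early embryonic activator Zelda, nor GAGAGAG of the GAGA factor, which 0.404%, 0.328%, 0.442% and 1.87% of all IDR windows held. With 23 windows, counts of 0 to 3 give no more than a description, and a match is not evidence of a bound site.

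The strongest peak at any of these genes lay past the 3′ end of CycB, a cyclin of mitosis whose mRNA is stored in the egg. CycB (FBgn0000405) lies on 2R from 22803521 to 22806948 on the minus strand. The peak, from 22802720 to 22803223, had its summit 551 bp beyond the 3′ end of CycB and 790 bp beyond the 3′ end of blw, the gene that converges on it, and the nearest TSS was that of CycB, 3333 bp away. Its IDR rank was 36. In replicate 2 it was at rank 39 with signal 1261, and in replicate 4 at rank 31 with signal 1119. As strong an IDR summit was found in the windows of 0.774% of protein-coding genes. At the CycB promoter the summit lay 70 bp upstream of the outermost of 3 starts and ranked 2386 in the IDR list, 2240 in replicate 2 with signal 193 and 2503 in replicate 4 with signal 151. The summit between the 3′ ends was thus far above that at the promoter in every list. The remaining IDR summit, at rank 730, lay 148 bp from the TSS of blw, which encodes the alpha subunit of mitochondrial ATP synthase.

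CycE, the cyclin that starts S phase, had its strong peak inside the gene and not at an annotated start. CycE (FBgn0010382) spans 20570 bp of 2L, from 15727581 to 15748150 on the minus strand, and has starts at 15748150, 15746610 and 15731784. The strongest summit, at 15747124, lay in an intron of the longest transcripts, 514 bp upstream of the middle start, and ranked 291 in the IDR list. It ranked 273 in replicate 2 with signal 588 and 293 in replicate 4 with signal 481, and the windows of 5.41% of protein-coding genes held an IDR summit as strong. The only IDR summit at a CycE start lay 9 bp from the innermost one and was near the end of the list, at rank 7800. It ranked 6556 in replicate 2 with signal 91.5 and 10220 in replicate 4 with signal 51.6. The outermost start had a pooled summit 42 bp away at rank 11266, outside the IDR list. A second intronic summit, at IDR rank 7099, lay 5107 bp downstream of the middle start.

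Sequence is shown around the strong CycE summit, chr2L:15747074-15747174 on the minus strand in dm6. It is also shown around the summit shared by Cdk1 and mRpS7, chr2L:10386416-10386516 on the minus strand. In the IDR list these are the strongest summit inside any of the 10 genes and the strongest within 250 bp of one of their starts. Neither holds any of the 9 elements searched, as was so for 17 of the 23 windows, so there are no capitals.
CycE intron: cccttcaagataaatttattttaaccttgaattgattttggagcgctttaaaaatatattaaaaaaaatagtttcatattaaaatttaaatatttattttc
Cdk1 and mRpS7: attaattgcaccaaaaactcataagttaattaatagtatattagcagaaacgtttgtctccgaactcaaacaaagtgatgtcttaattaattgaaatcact

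Cdk2, the partner of CycE, had a single weak summit. Cdk2 (FBgn0004107; 3R, 20735623 to 20738414, plus strand) had 1 IDR summit, 23 bp upstream of its TSS, at rank 6759, and no other pooled summit in its window of 12792 bp. The peak ranked 6271 in replicate 2 with signal 94.9 and 7688 in replicate 4 with signal 68.0. It stood at the weak end of the IDR list, whose median signal was 241 and lowest 138, with a signal of 159.

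CycD, the cyclin of G1, had an IDR summit near its start but outside the 250 bp. CycD (FBgn0010315; X, 15906822 to 15909676, minus strand) had it 471 bp upstream of the TSS, at rank 6935, with rank 5936 and signal 99.1 in replicate 2 and rank 9101 and signal 58.0 in replicate 4. A pooled summit 162 bp upstream ranked 8013, just outside the IDR list. Nearer the TSS the replicates differed. In replicate 4 the promoter summit was at rank 4949 with signal 95.8, 162 bp upstream, and in replicate 2 it was at rank 25545 with signal 22.1, 125 bp downstream.

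Cdk4, the partner of CycD, was flanked and crossed by summits, none of them at a start in the IDR list. Cdk4 (FBgn0016131; 2R, 16579470 to 16585448, plus strand) has 5 annotated starts. An IDR summit 583 bp upstream of the outermost one ranked 3628, with rank 4762 and signal 117 in replicate 2 and rank 2873 and signal 139 in replicate 4. The strongest, at rank 2078, lay in an intron 3207 bp from the nearest Cdk4 start. It was at rank 2270 in replicate 2 and rank 1934 in replicate 4. The nearest TSS of any gene was that of the antisense RNA gene asRNA:CR44375, 671 bp away. The remaining IDR summits lay at the promoters of RpLP2, an acidic ribosomal protein gene (rank 2490, 60 bp away), and of Dolk (rank 6874, at the TSS itself). The best promoter summit of Cdk4 was at rank 11081 in the pooled list, at 8643 in replicate 2 and at 14809 in replicate 4.

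The inhibitor gene dap was the only one of the 10 without an IDR summit in its window. It (FBgn0010316; 2R, 9712321 to 9716256, plus strand) had 7 pooled summits, of which 4 lay between 783 bp upstream and 75 bp downstream of the TSS, at ranks 10834, 11504, 10618 and 15420. Each replicate list also had a dap promoter summit, at rank 7268 with signal 71.5 in replicate 4 and at rank 16084 with signal 36.6 in replicate 2. The best summit of replicate 2 in the dap window lay 783 bp upstream of the TSS, at rank 8514.

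**Figure D3:**
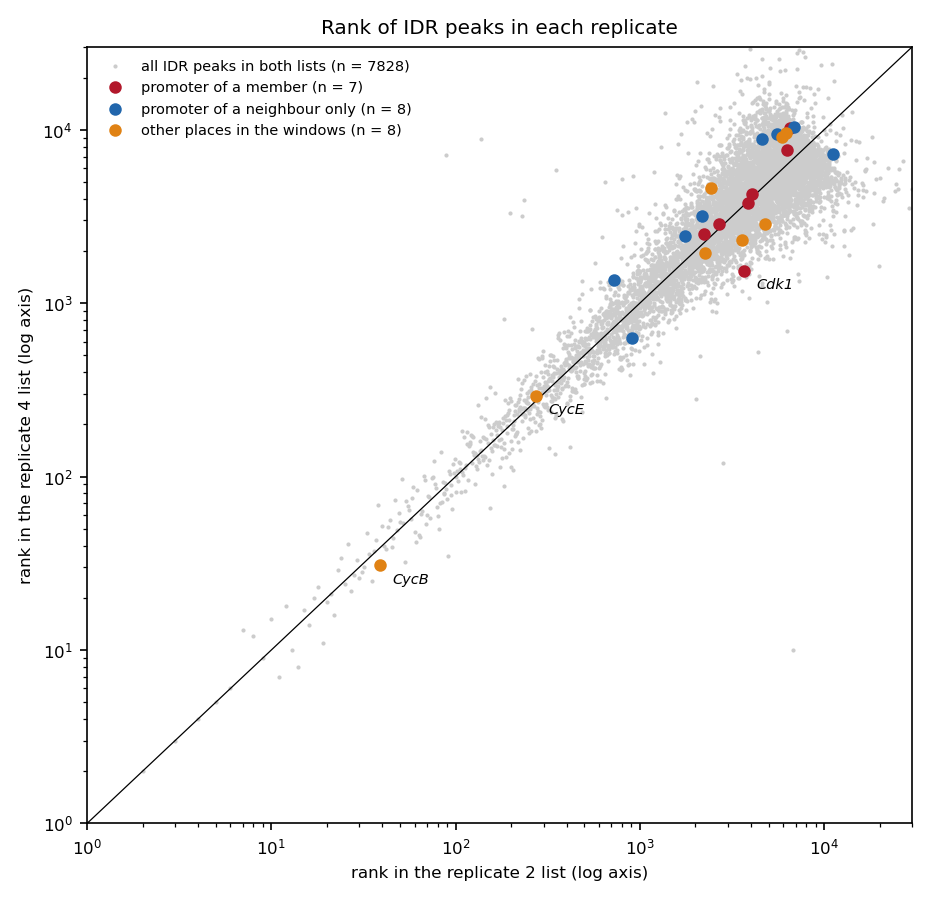
Rank of each IDR peak in the replicate 2 list (x axis, log) and the replicate 4 list (y axis, log). Red points are promoter summits of the 10 genes (7), blue points those at a neighbour's promoter only (8) and orange points the other summits of their windows (8), and grey points are all 7828 IDR peaks found in both lists; the line marks equal ranks. The peaks past CycB and inside CycE lie near the line among the strongest, and the Cdk1 promoter peak lies farthest from it among the 23.

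All 23 peaks overlapped a peak of both replicate lists by 1 bp or more, as did 7828 of all 7915 IDR peaks. The median ratio of the larger to the smaller rank was 1.50, against 1.29 over all IDR peaks. The IDR summit and the replicate summit were a median of 13.0 bp apart in replicate 2 and 26.0 bp in replicate 4, with 109 bp the largest distance. The better rank was in replicate 2 for 15 of the 23 (65.2%), against 51.9% of all IDR peaks. These are descriptions, since peaks of 1 window are not independent.

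Other cyclins and CDKs, some of which act in transcription, and genes that regulate or destroy cyclin-CDK complexes were counted in the same way in the IDR list. Of these 42 genes, 22 (52.4%) had a promoter summit, against 31.7% of all protein-coding genes. In the wider window 38 (90.5%) had a summit, against 64.9% of all protein-coding genes. Among the other cyclins 6 of 7 had a promoter summit, led by CycG at rank 1271 and CycH, the cyclin of the CDK-activating kinase, at rank 2862. Among the other cyclin-dependent kinases it was 5 of 7, led by Cdk12, a kinase of RNA polymerase II, at rank 828 in a promoter shared with SAK, and Cdk8, of the Mediator kinase module, at rank 3318. Cdk12 and Cdk8 act in transcription rather than in cell division.

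Of 7 phosphatase, kinase, subunit and inhibitor genes, 2 (28.6%) had a promoter summit, close to the 31.7% of all protein-coding genes. They were trbl, whose product promotes the breakdown of the Stg protein, at rank 236, and Wee1, a kinase that inhibits Cdk1, at rank 3907. The peak at trbl was at rank 254 in replicate 2 and at 214 in replicate 4, ahead of the promoter summits of all 10 genes described above. No promoter summit was found at twe, the meiotic Cdc25 gene, at Myt1, Cks30A, Cks85A or rux, nor at any of the 3 genes of the complex that controls cyclin B translation in the egg (png, plu and gnu). The anaphase-promoting complex marks mitotic cyclins for destruction. Of the 13 matched genes of this complex and its regulators, 6 had one, led by Cdc16 at rank 628 and Cdc27 at rank 1773. Both counts include Rca1, at rank 6043, which is neither a subunit nor an activator of the complex. Of 5 genes of the SCF ubiquitin ligase, 3 had one, led by ago, whose product marks CycE for destruction, at rank 3792, and SkpA at rank 4248 in a promoter shared with Hmt4-20.

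**Figure D4:**
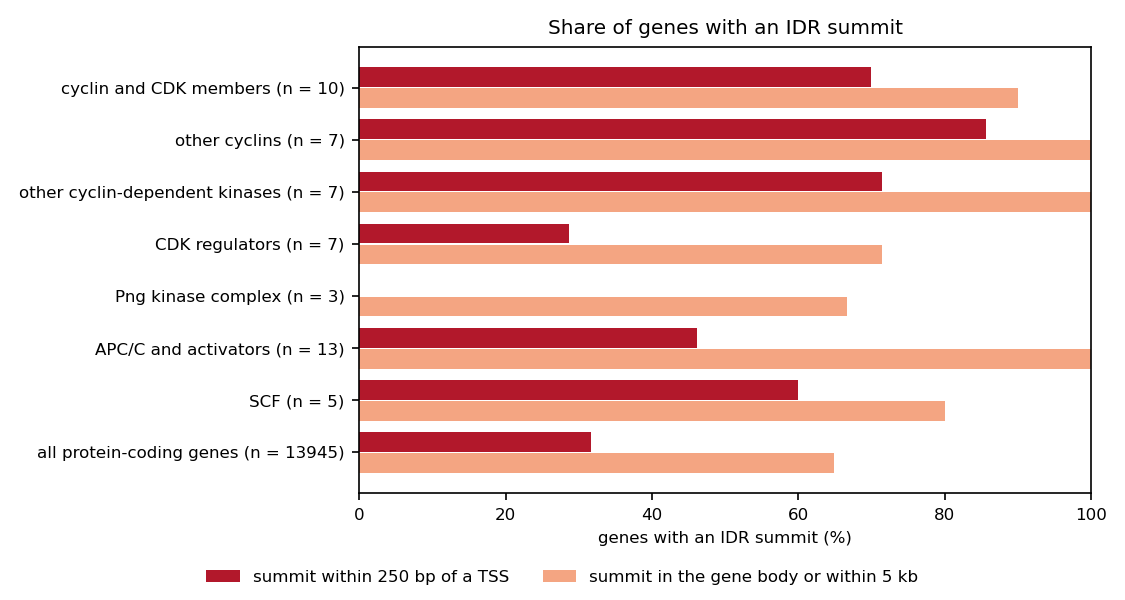
Percentage of genes (x axis) whose promoter holds an IDR summit (dark bars) or whose gene body or 5 kb surround does (light bars), for the 10 cyclin and CDK genes, the related lists and all protein-coding genes, with the number of genes in brackets. The 10 genes stand at 70.0% and 90.0% and all protein-coding genes at 31.7% and 64.9%.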

How the data were processed

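The data are 4 peak lists deposited by the authors in dm6. Per the deposited provenance notes, alignments of 1 or both replicates and 1 control alignment went into 3 of them, and the IDR list was derived from these. No aligner and no caller is named in the sources used here. The deposited signal of each peak has no stated scale and served only to rank peaks against others of their list. The −log10 q-values that the authors deposited entered no result. The other deposited columns are positions: peak start, peak end and summit offset, in bp.

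Genes and TSSs came from Ensembl 115 (BDGP6.54, dm6 coordinates), without transposons, on 6 chromosome arms; sequence came from the RefSeq assembly of the same release. Positions count from 1. Peaks of different lists were matched by an overlap of 1 bp or more, taking the nearest summit. Calls were checked on peaks placed at known distances. Python 3.11.15, numpy 2.4.6, pandas 2.3.3 and matplotlib 3.10.9 were used.

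The members, the related lists and the elements were chosen with earlier results of these data known, so no test was made and members are set beside all protein-coding genes. The text names the 10 genes, genes whose promoter holds one of their summits, and the 2 genes of each related list with the strongest promoter summit; genes of these lists without a promoter summit, and other gene names, were added after values were seen. The symbol lmg matched no single protein-coding gene and was left out.

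With 2 replicates of 1 line, agreement between lists shows spread between these samples alone.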

Additional observations from a re-analysis of the deposited data

How the results depend on the processing

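Leaving out a replicate meant taking the strongest 7915 peaks of the other replicate. The count of genes with a promoter summit, 7 of 10, was 7 without replicate 4, beside 32.1% of all protein-coding genes. It was 8 without replicate 2 (30.4%), where CycD and dap came in and CycE dropped out. It was 4 in the strongest 50% of the IDR peaks (CycB, CycB3, Cdk1 and stg), beside 17.2% of all protein-coding genes. It was 6 within 100 bp of a TSS, without Cdk1 (18.2% of all protein-coding genes), 9 within 1000 bp (40.1%) and 10 in the whole pooled list (48.9%). The count with the wider window, 9, was 3 in the gene body alone (CycE, Cdk4 and stg), beside 16.7% of all protein-coding genes, and stood between 7 and 10 in the other alternatives, from 9 without replicate 4 (65.1%) to 10 without replicate 2 (64.6%); the share of all protein-coding genes ran from 46.2% in the strongest 50% to 77.8% in the pooled list. With 100 bp to each side of the summit, CGGAC was in 3 of the 23 windows (8.77% of all IDR windows, 17.5% of the moved ones). GCGGAC was in 1 (2.86% and 5.77%), GGTCACACT in 4 (3.80% and 0.246%) and TTTGGCGC in 1 (1.11% and 1.21%). TATCGATA stayed at 3 of the 23, beside 6.19% of all IDR windows and 0.474% of the moved ones. The cause of these moves was not tested, apart from lists and distances that hold fewer or more summits by construction. No paired analysis was possible because there is 1 group. Read depth is unknown and limits what can be said of weak peaks.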
